A study of Mus musculus with 18 samples.

Results

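Embryoid bodies (EBs) grown for 4 days with LIF were compared with the undifferentiated ES cells from which they were made. The members are the clones of the NIA 15K cDNA set with 1 gene symbol and a value on all 4 arrays of the comparison. They number 9866 of 15360 clones and stand for 7142 genes. Both groups were IMT11 cells, a mouse embryonic stem cell line. The ES cells (D0) were kept with LIF on gelatin, while the Day 4 EBs with LIF (D4+LIF) came from hanging drops in the same serum-rich medium with LIF, so growth form and time cannot be told apart. Each group had 2 of the series' 18 arrays, and each array set a sample against a pooled control. By the series' design text the pool was made from EBs of Day 1 to Day 4. By the methods it also held the ES cells of Day 0, so whether ES cell RNA was in it is unsettled. The sample carried Cy3 on 1 array of a group and Cy5 on the other. The labels speak of 2 biological sets but not of which array belongs to which. The p-values measure the spread within conditions over all 18 arrays, after the mean difference between the dyes was removed for each gene. Whether that is a spread between biological sets is not known, and it still holds any dye difference that varied between conditions.

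LIF acts through the gp130 receptor and STAT3 and keeps mouse ES cells undifferentiated in culture. In an EB the outer cells form primitive endoderm, which lays down a basement membrane, and the inner cells go on towards primitive ectoderm, a course that LIF slows. The question put by this comparison is which transcripts differ after 4 days as a body when LIF was never taken away. Only ratios were used here, so the level of a marker within a sample cannot be read, and the label ES cell could be checked only by how its markers stood against the pool.

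No gene passed the test. With limma at an adjusted p under 0.05, 0 of 7142 genes (0%) and 0 of 15359 clones differed between D4+LIF and D0, and the smallest adjusted p of a gene was 0.0547. At an unadjusted p under 0.05 there were 2079 genes, of which 1394 (19.5% of those tested) were lower and 685 (9.59%) were higher in D4+LIF, and of the clones 15.3% were lower and 11.3% higher at the same limit. In both dye pairs 41.2% of the genes were lower in D4+LIF and 26.7% were higher. In 29.2% the sign was the same in both pairs and under 5 other scalings. For 7.73% of the genes both D4+LIF arrays lay above both D0 arrays, and for 7.46% both lay below. The count of 0 rested on which arrays were used: it was 1206 genes without the D4+LIF array in Cy3, 2679 without the D0 array in Cy5 and 537 with slide 2 alone, and it stayed at 0 without either of the other two arrays.

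The 4 arrays differed in spread, and that difference moved with the result. The spread of the log2 ratios over clones (SD) was 2.23 on slide 1 of the D0 array in Cy3 and 0.491 on its slide 2, whereas it was 0.168 to 1.41 on the slides of the D4+LIF arrays. The values of these 4 arrays ran with a dye profile. It is the mean of the Cy3 arrays minus that of the Cy5 arrays, divided by 2, over the other 14 arrays. In these each condition is present once in each dye. Over clones their correlation with it was 0.16 to 0.77 on the slides of the Cy3 arrays and -0.90 to -0.71 on those of the Cy5 arrays. Not every array of the series did so, since 3 of the other Cy3 arrays (D1-LIF, D3+LIF and D3-LIF) were at -0.42 to 0.03. The slope on this profile was 3.96 and 1.01 for the D0 array in Cy3 (slides 1 and 2) against 0.769 and 0.0728 for the D4+LIF array in Cy3. It was -0.569 and -0.935 for the D0 array in Cy5 against -1.36 and -3.41 for the D4+LIF array in Cy5. In both dyes D4+LIF lay below D0 for genes high in the profile. The median log2 difference was -1.21 in the 25% of genes highest in the profile and 0.46 in the 25% lowest, and it was -0.04 and -0.03 after the profile was subtracted from each array. Whether the dye or the cells set this was not tested. Values with the profile subtracted are given below beside those of the slide-centred arrays.

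**Figure D1:**
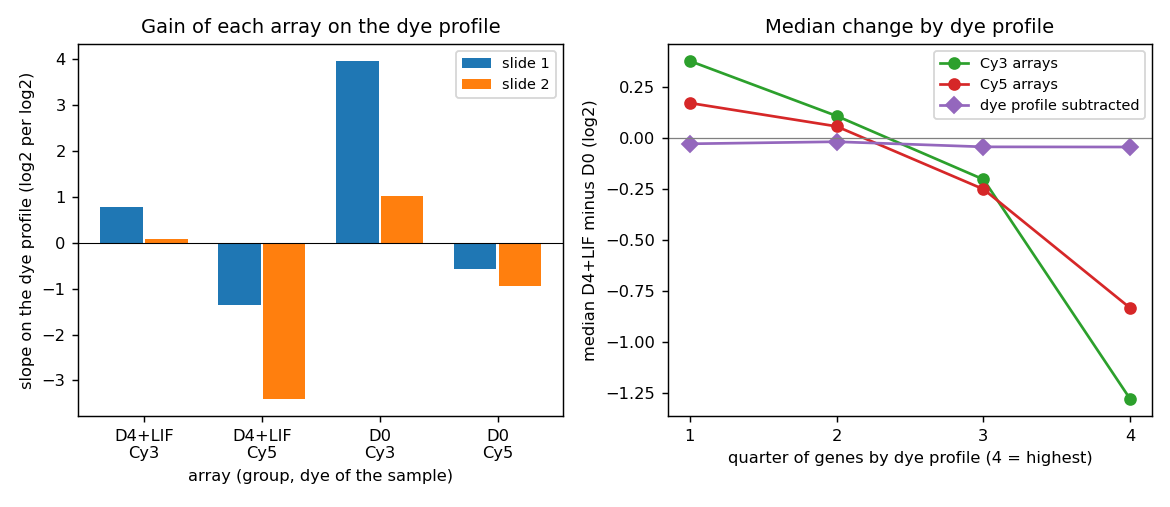
Left, slope of the log2 values of each of the 4 arrays on the dye profile (log2 per log2), by array and slide, as bars from 0. Right, median log2 difference of D4+LIF minus D0 in 4 equal parts of the genes ordered by the profile, on the Cy3 arrays, on the Cy5 arrays and after subtraction. The D0 array in Cy3 has the steepest rising bar (3.96 on slide 1), the D4+LIF array in Cy5 the steepest falling bar of the 4 arrays compared (-3.41 on slide 2), and the difference falls to -1.21 over both dyes in the highest part, where it is -0.04 after subtraction.

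Most genes of smallest p on the lower side were parts of the ribosome and of translation. Of the 12 lower genes of smallest p, 7 are ribosomal protein genes (Rpl37, Rpsa, Rpl37a, Rps15, Rpl10, Rpl7 and Rps27), and Eef1a1, which carries aminoacyl tRNA to the ribosome, was another. The rest were Sod1, Pdia3, Agt and A730082K24Rik, a RIKEN transcript at 0.54 and -4.52 in D4+LIF and 2.40 and -1.72 in D0 on the scale given next (-2.33 ± 0.31, limma adjusted p = 0.0547; 0.47 with the profile subtracted). Rpl37, of the large subunit, stood at -0.11 and -2.73 on the D4+LIF arrays (Cy3, then Cy5, as log2 ratio to the pool minus the slide median) and at 2.52 and -0.58 on the D0 arrays. The D4+LIF value was lower within each dye, but the groups overlapped, since the D4+LIF array in Cy3 lay above the D0 array in Cy5. The difference was -2.39 ± 0.29 (SE, log2; n = 2 arrays in each group; limma adjusted p = 0.0547), -0.32 with the profile subtracted and 0.24 with the Cy3 arrays turned. Rpsa, of the small subunit, which also serves as a laminin receptor, was at -0.11 and -3.85 in D4+LIF and at 2.15 and -0.89 in D0. Its difference of -2.61 ± 0.35 (limma adjusted p = 0.0547) ranged from -2.82 to -2.46 over 7 clones, so that the clones on both slides gave much the same value. With the profile subtracted the difference of Rpsa was -0.53. Within each dye, D0 had the highest value of Rpsa among all groups with a value. Eef1a1 stood at 0.60 and -3.89 in D4+LIF and at 2.72 and -1.14 in D0, a difference of -2.44 ± 0.33 over 17 clones that came to 0.03 with the profile subtracted. Clones of near-identical copies share signal on a cDNA array, and ribosomal protein genes and Eef1a1 have many, so these values may be of more than 1 locus.

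Vertebrate ribosomal protein and elongation factor transcripts are known to start with a run of pyrimidines, the 5′ TOP motif, through which growth signals set their translation. The starts of those lower genes of translation that the RefSeq promoter table held are shown because they are the sequences these leading genes have in common or do not. Each line gives 15 bases before the annotated start and 15 from it on (GRCm38.p6, 5′ to 3′ on the gene's strand), with a run in capitals where a C and at least 5 further C or T begin within 10 bases of the start.
Rpl37, chr15:5116598-5116627, plus strand: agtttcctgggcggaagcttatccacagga
Rpsa, chr9:120127751-120127780, plus strand: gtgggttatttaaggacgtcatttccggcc
Eef1a1, chr9:78481710-78481739, minus strand: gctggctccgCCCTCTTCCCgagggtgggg
Rpl37a, chr1:72711245-72711274, plus strand: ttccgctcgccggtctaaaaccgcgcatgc
Rps15, chr10:80292416-80292445, plus strand: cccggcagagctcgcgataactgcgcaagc
Rpl10, chrX:74270801-74270830, plus strand: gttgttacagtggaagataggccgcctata
Rps27, chr3:90213634-90213663, minus strand: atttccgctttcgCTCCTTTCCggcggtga
The run was found at Eef1a1 and Rps27 among these. Of 72 ribosomal protein genes measured, 58 had a start in the table and 33 of those (56.9%) held the run, against 23.2% of the 5781 genes measured that had a start. Only the gene's own strand was searched, and annotated starts can lie some bases away from the true ones.

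**Figure D2:**
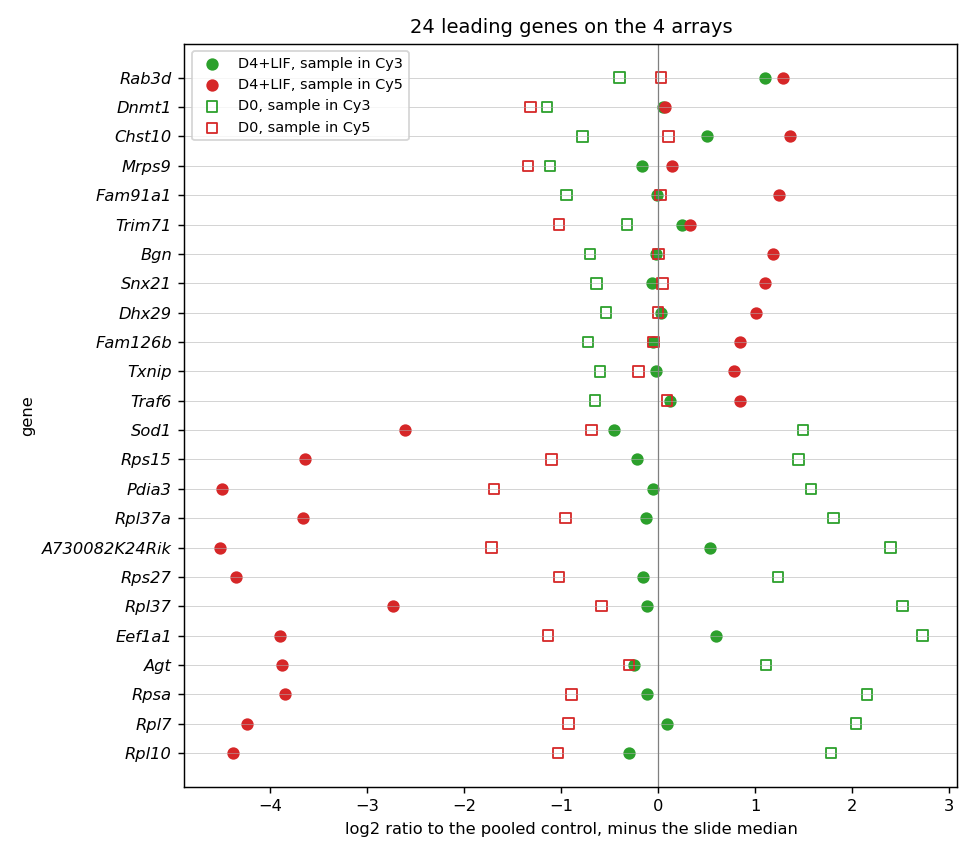
The 12 higher and 12 lower genes of smallest p on the 4 arrays, as log2 ratio to the pooled control minus the slide median (x axis), with D4+LIF as filled circles, D0 as open squares, green for Cy3 and red for Cy5. For Dnmt1 and Rab3d both circles lie right of both squares. For the lower genes the red circle lies left of both squares, but the green circle lies left of the green square only. An example is Rpsa, with circles at -0.11 and -3.85 and squares at 2.15 and -0.89.

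As groups, both ribosomal protein lists lay lower in D4+LIF under every scaling tried. All 27 measured genes of the small subunit were lower in both dye pairs, with a median log2 difference of -2.25 (range -3.01 for Rps20 to -0.85 for Rps19), beside a median of -0.13 over all genes. The medians were -1.51 on the Cy3 arrays and -2.89 on the Cy5 arrays. Of the 45 genes of the large subunit, 43 were lower in both pairs and the median was -2.17; Rpl11, at 0.16, was the highest. All 27 small subunit genes and 43 of the 45 large subunit genes were in the top 25% of the dye profile. With the profile subtracted, 24 of 27 and 35 of 45 stayed below 0, where 53.7% of all genes did, and the medians were -0.41 and -0.18. With the arrays brought to equal spread, 27 of 27 and 38 of 45 stayed below 0, where 49.6% of all genes did, with medians of -0.63 and -0.31. Rps24, Rps19 and Rps2 were the small subunit genes above 0 with the profile subtracted, at 0.04, 0.30 and 0.04. None of the 72 genes passed the adjusted test.

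Other large groups of housekeeping genes had low medians on the slide-centred arrays and medians near 0 once the profile was subtracted. Over all genes, 41.2% were lower in both pairs. Chaperones, which fold new proteins, had a median of -1.80 with 33 of 37 genes lower in both pairs, but -0.11 with the profile subtracted and -0.08 at equal spread. Within it Cct8, a subunit of the cytosolic chaperonin with 1 clone, had the lowest value of all 7142 genes (-3.56 ± 0.64, limma adjusted p = 0.113), from 0.92 and -3.13 in D4+LIF and 4.73 and 0.17 in D0, and was at -1.04 with the profile subtracted and 0.25 with the Cy3 arrays turned. Translation factors had a median of -1.39 with 30 of 39 lower in both pairs, and 0.05 with the profile subtracted. Eif4h, which stimulates the initiation helicase, went the other way: it stood at 0.37 and 0.15 in D4+LIF and at -0.49 and -0.18 in D0, so the groups did not overlap, with a difference of 0.59 ± 0.20 (limma adjusted p = 0.143). Its rise was larger in the Cy3 pair, so its sign changes when the Cy3 arrays are turned. Enzymes of glycolysis and the pentose phosphate path had a median of -1.75 (15 of 19 lower in both pairs), and -0.09 with the profile subtracted. Splicing factors and hnRNPs (median -1.16, 37 of 45 lower in both pairs), the proteasome (-1.07, 23 of 28), the cytoskeleton (-1.54, 35 of 39) and proteins of the nucleolus (-1.58, 27 of 34) came to 0.05, -0.15, -0.04 and -0.11 with the profile subtracted. When the Cy3 arrays were turned in sign, the medians of all these lists were above 0 (0.13 to 0.95), while those of both ribosomal protein lists stayed below 0, at -0.60 and -0.43. For genes lower in both pairs, turning gives the 2 pairs opposite signs, and the larger pair then sets the sign. In both ribosomal protein lists the Cy5 pair was the larger (medians of -2.89 and -2.21, against -1.51 and -1.62 for Cy3). Their 2 pairs thus no longer had 1 sign once turned.

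Mitochondrial lists had less negative medians on the slide-centred arrays, and these changed sign, to 0.07 for oxidative phosphorylation and 0.38 for the mitochondrial ribosome, when the Cy3 arrays were turned. Of 58 genes of oxidative phosphorylation, 45 were lower in both pairs with a median of -0.93, where 41.2% of all genes were lower. With the profile subtracted 42 of 58 stayed below 0 (median -0.20), where 53.7% of all genes did. Cox4i1, a subunit of cytochrome c oxidase, was at -0.12 and -3.46 in D4+LIF and 1.67 and -0.97 in D0, a difference of -2.14 ± 0.47 (limma adjusted p = 0.114) and of -0.49 with the profile subtracted. Of 49 mitochondrial ribosome genes, 33 were lower in both pairs (median -0.90) and 35 stayed below 0 with the profile subtracted (median -0.26). Mrps9 and Mrpl45, of its small and large subunit, ran against their list: Mrps9 stood at -0.17 and 0.14 in D4+LIF and at -1.12 and -1.34 in D0 (1.21 ± 0.23, limma adjusted p = 0.113), and Mrpl45 at 0.05 and 0.14 in D4+LIF and at -0.52 and -0.62 in D0 (0.67 ± 0.21, limma adjusted p = 0.135). Each had 1 clone. For both genes the slide-centred D4+LIF and D0 arrays did not overlap, and the differences were 0.60 and 0.80 with the profile subtracted. For Mrps9 the subtracted values were -0.02 and 0.03 in D4+LIF and 0.22 and -1.41 in D0. There the groups overlapped, and only the Cy5 pair was higher in D4+LIF.

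**Figure D3:**
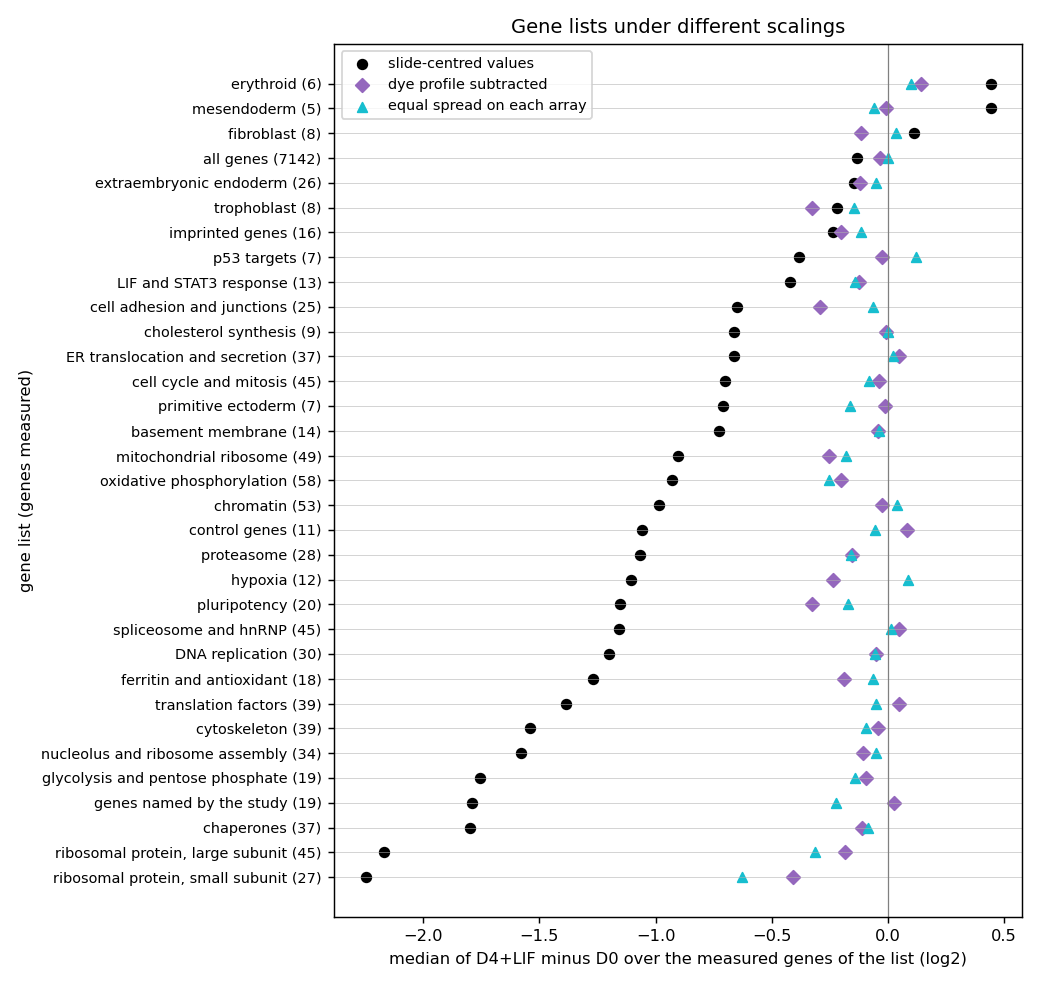
Median log2 difference of D4+LIF minus D0 (x axis) over the measured genes of each list (number in brackets), for slide-centred values (black circles), with the dye profile subtracted (purple diamonds) and with equal spread on each array (blue triangles). Most lists move from well below 0 to near 0 with the last 2 scalings, while the small subunit of the ribosome stays lowest, at -0.41 and -0.63.

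Genes of pluripotency were on the lower side in D4+LIF, though none passed the test. Of 20 measured, 16 were lower in both dye pairs and 0 were higher, with a median of -1.15, where 41.2% of all genes were lower and 26.7% higher. With the profile subtracted, 15 of 20 stayed below 0, where 53.7% of all genes did. The median was then -0.32, and with the Cy3 arrays turned it was 0.18. Nanog and Pou5f1 (Oct4), factors at the core of the ES cell state, each had 1 clone, on slide 1. Nanog stood at 0.32 and -1.90 in D4+LIF and at 3.80 and -0.71 in D0, a difference of -2.33 ± 0.86 (limma adjusted p = 0.150) and of -0.56 with the profile subtracted. Pou5f1 stood at 1.13 and -1.83 in D4+LIF and at 3.85 and 0.08 in D0, a difference of -2.32 ± 0.77 (limma adjusted p = 0.141) and of -0.34 with the profile subtracted. In both genes the D0 array in Cy3, which had the wide spread on that slide, gave the value farthest from 0, and with the Cy3 arrays turned the differences were 1.14 and 0.41. Dppa5a, an RNA-binding protein of early embryo cells that the study followed by name, stood at -0.63 and -3.71 against 0.50 and -1.34, a difference of -1.75 ± 0.54 (limma adjusted p = 0.135). Sall4, a zinc finger factor of the same network, had the highest value of the list (1.52 ± 0.81), from 0.08 and 0.08 in D4+LIF and -3.06 and 0.17 in D0, so that only the Cy3 pair showed it.

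Of 13 members and targets of the LIF and STAT3 pathway measured, 8 were lower and 2 higher in both pairs, beside 41.2% and 26.7% of all genes. Their median was -0.42, and it was -0.12 with the profile subtracted and 0.01 with the Cy3 arrays turned. With the profile subtracted 12 of 13 were below 0, where 53.7% of all genes were. Myc, a transcription factor of cell growth induced through STAT3, was at 0.02 and -1.40 in D4+LIF and 1.85 and -0.30 in D0 (-1.46 ± 0.40, limma adjusted p = 0.133), with -1.57 and -1.35 from its 2 clones and -0.62 with the profile subtracted. Klf4, which joins Oct4 at ES cell genes, was at -0.13 and -0.93 against 3.36 and -0.20 (-2.11 ± 0.75, limma adjusted p = 0.150). Socs3, the feedback inhibitor of the LIF receptor, was at 0.16 and -1.27 against 2.57 and -0.27 (-1.71 ± 0.62, limma adjusted p = 0.152), and at -0.14 with the profile subtracted. Stat3 itself was at 0.37 ± 0.16 and at -0.07 with the profile subtracted. Within each dye, Myc, Klf4 and Socs3 were lower in D4+LIF, but turning the Cy3 arrays put these differences at 0.36, 1.38 and 0.70.

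Markers of the cell types that arise in EBs gave small or mixed values. For the counts below, 41.2% of all genes were lower and 26.7% higher in both pairs. Extraembryonic endoderm (50% and 26.9%) and the lower share of primitive ectoderm (42.9%) were not far from these. Of 26 genes of extraembryonic endoderm, 13 were lower and 7 higher in both pairs (median -0.14, -0.12 with the profile subtracted and 0.05 with the Cy3 arrays turned). Gata4 and Gata6, which direct primitive endoderm, stood at 0.40 ± 0.17 and 0.27 ± 0.21 and at -0.14 and -0.08 with the profile subtracted. Sparc and Lama1, secreted into the basement membrane, were at -2.14 ± 0.62 and -2.21 ± 0.88, and at 0.88 and 1.74 with the Cy3 arrays turned. Of the 14 genes of the basement membrane 10 were lower in both pairs (median -0.73, and -0.04 with the profile subtracted). Lama1 stood at -0.23 and -0.63 in D4+LIF and at 3.73 and -0.16 in D0, its arrays did not overlap, and it kept -2.25 with the profile subtracted, but its size again came with the D0 array in Cy3 on slide 1. Of 7 genes of primitive ectoderm 3 were lower in both pairs (median -0.71, and -0.01 with the profile subtracted), and Cdh2, the cadherin gained on leaving the epithelial state, was at -1.19 ± 0.53. Of 5 mesendoderm genes 1 was higher and 1 lower in both pairs (median 0.44, -0.01 with the profile subtracted and -0.57 with the Cy3 arrays turned), and Pdgfra, a receptor of early mesoderm, was at 1.74 ± 0.85 with -3.84 on the D0 array in Cy3. Of 4 neurectoderm genes 3 were lower in both pairs, and of 8 trophoblast genes 4 were lower and 2 higher, with medians of -0.44 and -0.22 and, with the profile subtracted, of -0.32 and -0.33, which were 0.51 and 0.14 with the Cy3 arrays turned. Erythroid genes had 4 of 6 higher in both pairs and a median of 0.44 (0.14 with the profile subtracted). Hbb-y, the embryonic globin, was at 0.26 and 0.95 in D4+LIF and -0.24 and 0.16 in D0, which did not overlap (0.65 ± 0.19, limma adjusted p = 0.133; 0.42 with the profile subtracted). Of 8 fibroblast markers, set here for cells that might be carried along, 4 were higher and 1 lower in both pairs, with a median of 0.11 and of -0.11 with the profile subtracted. Ratios give no summed level of such markers, and their part in the values above was not tested. In RNA of a whole body, fewer cells of a type and less RNA in each cell cannot be told apart.

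**Figure D4:**
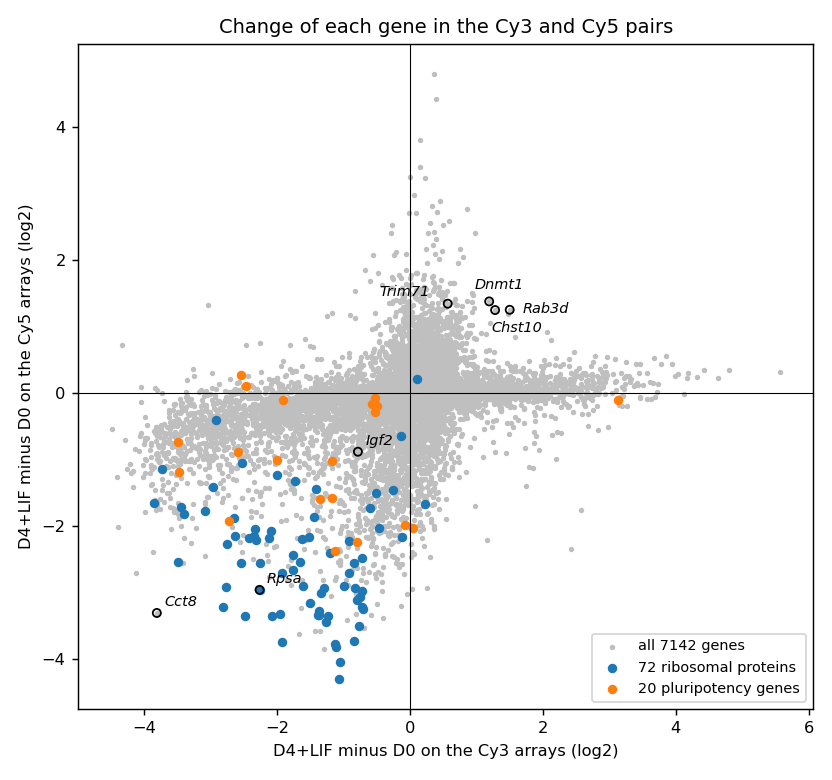
Log2 difference of D4+LIF minus D0 for each of 7142 genes on the Cy3 arrays (x axis) and on the Cy5 arrays (y axis), with 72 ribosomal protein genes in blue, 20 pluripotency genes in orange and single genes named. Ribosomal protein genes fill the lower left, where Rpsa lies, while Dnmt1, Rab3d, Chst10 and Trim71 lie at the upper right, where both pairs are above 0.

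The higher genes of smallest p lay at percentiles 3.8 to 47.0 of the dye profile, and the lower ones at 97.3 to 99.9. Dnmt1, Rab3d and Trim71 lay nearer its middle, at 34.9, 31.4 and 47.0. The rest of the higher genes lay at its low end, from 3.8 for Snx21 to 10.7 for Chst10. All genes in the lowest part of the profile had a median difference of 0.46, and of -0.03 after subtraction. For several of the higher genes the arrays of a group agreed across the dyes. Of the 12, 8 had both D4+LIF arrays above both D0 arrays, as 7.73% of all genes did. All 12 kept their sign under array-wide centring, no centring, equal spread, quantile normalization and subtraction of the profile. Of all genes, 17.6% were higher in both pairs and kept it. The sign stayed in 9 of 12 with the Cy3 arrays turned. Of the 12 lower genes, 0 were so separated, 9 kept their sign under the 5 scalings and 10 with the Cy3 arrays turned. Both sets were picked by small p and 1 sign in both pairs from these same values, so the counts are no independent evidence. Each of the 12 higher genes rested on 1 clone, as did 4 of the 12 lower genes. Dnmt1, the methyltransferase that copies DNA methylation after replication, stood at 0.05 and 0.07 in D4+LIF and at -1.15 and -1.31 in D0. The arrays of each group lay close together and the groups did not overlap. The difference was 1.29 ± 0.16 (limma adjusted p = 0.0547). It was 1.03 with the profile subtracted and 0.09 with the Cy3 arrays turned. The 15 other arrays with a value all lay between -0.28 and 0.28, and both D0 arrays were below every other array. The clone is on slide 1, where the SD was 2.23 on the D0 array in Cy3 and 0.317 on that in Cy5. Like values on these 2 arrays are therefore unlike against their spread. After subtraction the values of Dnmt1 were -0.61 and -1.35 in D0 and 0.08 and 0.02 in D4+LIF. Of the de novo methyltransferases, Dnmt3a was at 0.03 ± 0.15 and Dnmt3b at -1.37 ± 0.97, and their partner Dnmt3l was at -1.54 ± 0.50.

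Rab3d, a small GTPase of secretory vesicles, stood at 1.10 and 1.28 in D4+LIF and at -0.40 and 0.03 in D0, a difference of 1.38 ± 0.20 (limma adjusted p = 0.0547) and of 1.17 with the profile subtracted, but -0.12 with the Cy3 arrays turned. Here D4+LIF stood apart, since the 16 other arrays lay between -0.40 and 0.54. Genes with both D4+LIF arrays beyond all other arrays made up 0.336%, and those with both D0 arrays so placed 0.644%. Trim71 (Lin41), a ubiquitin ligase and RNA-binding protein of stem cells and a target of let-7, stood at 0.25 and 0.32 in D4+LIF and at -0.32 and -1.02 in D0. Its difference was 0.96 ± 0.20 (limma adjusted p = 0.113), 0.93 with the profile subtracted and 0.39 with the Cy3 arrays turned. Both D0 arrays were again the lowest of all. Among EBs, the 8 arrays with LIF lay between 0.13 and 0.41 and the 8 without LIF between -0.07 and 0.09, a separation found for 5 of 7142 genes (0.07%) in this direction and 0 in the other; it was noticed after the values were seen and was not tested. Chst10, which builds the HNK-1 sugar on adhesion molecules, stood at 0.50 and 1.36 in D4+LIF and at -0.78 and 0.11 in D0 (1.27 ± 0.20, limma adjusted p = 0.0758; 0.74 with the profile subtracted; -0.01 with the Cy3 arrays turned). Mrps9, described above, was also of the 12, and the remaining 7 were Traf6, Bgn, Fam126b, Txnip, Fam91a1, Snx21 and Dhx29 at 0.77 to 1.08, which came to 0.08 to 0.45 with the profile subtracted.

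**Figure D5:**
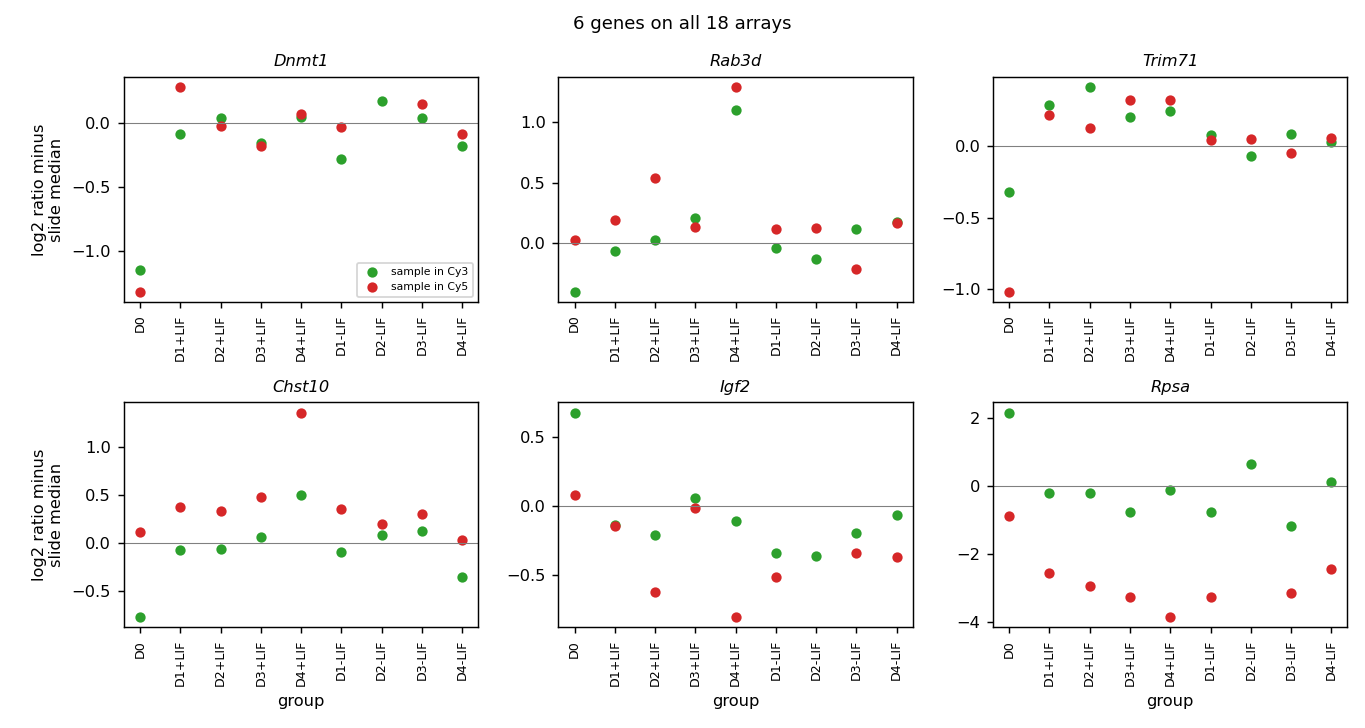
Log2 ratio to the pooled control minus the slide median (y axis) of 6 genes in the 9 groups (x axis), 1 point for each array with a value, green for samples in Cy3 and red for Cy5. Dnmt1 and Trim71 are lowest on both D0 arrays, Rab3d is highest on both D4+LIF arrays (1.10 and 1.28), and Rpsa shows green above red in every group that has both points.

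Further lists had the same form, beside 41.2% of all genes lower in both pairs. The p53 targets (42.9%) were near that share. With the profile subtracted, DNA replication (-1.20, 23 of 30 lower in both pairs), cell cycle (-0.70, 30 of 45), chromatin (-0.99, 37 of 53), secretion through the ER (-0.66, 20 of 37), cell adhesion (-0.65, 17 of 25) and ferritin and antioxidants (-1.27, 13 of 18) came to -0.05, -0.04, -0.03, 0.05, -0.29 and -0.19. Hypoxia genes (-1.11, 9 of 12), cholesterol synthesis (-0.66, 5 of 9) and p53 targets (-0.38, 3 of 7) came to -0.24, -0.01 and -0.03. When the Cy3 arrays were turned, all of these medians lay above 0 (0.18 to 0.71) except that of cell adhesion, at -0.12.

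Imprinted genes, expressed from 1 parental copy, had a median of -0.24 over 16 genes, with 9 lower and 2 higher in both pairs. Of all genes, 41.2% were lower and 26.7% higher. Igf2, the fetal growth factor, stood at -0.11 and -0.80 in D4+LIF and at 0.67 and 0.08 in D0, so that D0 lay above D4+LIF on both arrays. Its difference was -0.83 ± 0.20 (limma adjusted p = 0.127), -0.98 and -0.69 from its 2 clones on different slides, and -0.75 with the profile subtracted, but 0.28 without centring, where the median of all genes was 0.84. Phlda2, a placental growth restrictor from the same gene cluster, was at -0.51 and -0.91 in D4+LIF and 1.28 and -0.22 in D0 (-1.24 ± 0.40, limma adjusted p = 0.143). H19, the noncoding RNA beside Igf2, was at -0.14 ± 0.15 over 8 clones. Agt, the precursor of angiotensin, was among the 12 lower genes with -0.25 and -3.88 in D4+LIF and 1.11 and -0.30 in D0 (-2.47 ± 0.45, limma adjusted p = 0.113), and kept -0.84 with the profile subtracted. Sod1, the cytosolic superoxide dismutase, with -0.45 and -2.60 against 1.49 and -0.69 (-1.93 ± 0.30, limma adjusted p = 0.0710), came to -0.13, and Pdia3, which forms disulfide bonds in the ER, with -0.05 and -4.49 against 1.58 and -1.69 (-2.21 ± 0.37, limma adjusted p = 0.0860), came to 0.17.

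The genes that the study follows by name were lower in D4+LIF in 17 of 19 cases in both pairs, with a median of -1.79. With the Cy3 arrays turned the median was 0.38. Most were named from arrays of this series, with or without LIF, so that is no independent evidence. By RT-PCR the paper found more of its genes changed without LIF than with it. The 19 also include Actb, Gapdh and Hprt. Over all genes, 41.2% were lower in both pairs. Of the 19, 18 lay in the top 25% of the dye profile, and the median was 0.02 with the profile subtracted. Hspa8, the constitutive heat shock protein 70, was at 0.84 and -2.82 in D4+LIF and 3.09 and -1.35 in D0 (-1.86 ± 0.55, limma adjusted p = 0.133), and 0.23 with the profile subtracted. Ftl1, the ferritin light chain, was at 0.13 and -3.01 against 3.54 and -0.84 (-2.79 ± 0.75, limma adjusted p = 0.133; -0.80 with the profile subtracted). Rplp1, of the ribosomal stalk, was at -0.60 and -3.98 against 0.25 and -1.42 (-1.70 ± 0.49; -0.35 with the profile subtracted). Of 11 control genes 8 were lower in both pairs, with a median of -1.06, of 0.08 with the profile subtracted and of 0.60 with the Cy3 arrays turned. Gapdh was at -2.23 ± 0.91, Actb at -1.65 ± 0.70 and Hprt at -1.70 ± 0.55, and at -0.20, 0.21 and 0.12 with the profile subtracted. Actb ranged from -2.71 to 1.53 over its 10 clones. Aurkb, a mitotic kinase, was the 1 gene of the list higher in both pairs (0.54 ± 1.13).

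The same bodies were set against Day 4 EBs without LIF (D4-LIF) and against Day 3 EBs with LIF (D3+LIF), which share the D4+LIF arrays with the comparison above. With limma, 0 of 7142 genes (0%) differed in either at an adjusted p under 0.05. At an unadjusted p under 0.05, 4.31% were higher and 1.88% lower than in D4-LIF, and 1.22% higher and 2.24% lower than in D3+LIF. Rab3d (1.02 ± 0.20 against D4-LIF and 1.02 ± 0.20 against D3+LIF), Tubgcp5, of the gamma-tubulin ring (0.69 ± 0.17 and 0.85 ± 0.17), and Ip6k1, an inositol phosphate kinase (0.54 ± 0.13 and 0.54 ± 0.13), were higher in D4+LIF in both. They were among the genes of smallest p against D4-LIF, with a limma adjusted p of 0.754. Dnmt1 differed little between these groups, by 0.19 and 0.22. Tgfb2, a growth factor of the TGF beta family, was at -0.34 and 0.00 in D4+LIF and at 0.44 and 0.44 in D4-LIF (-0.61 ± 0.16, limma adjusted p = 0.754), and near 0 against D0 (0.06 ± 0.16). Against D4-LIF the count was 609 genes without the D4+LIF array in Cy3, and against D3+LIF it was 433.

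A criterion of the study, a change of at least 2-fold in every one of the 4 repeats (2 arrays with duplicate spots), took 4 clones as higher (0.026%) and 640 as lower (4.17%) in D4+LIF. With equal spread on each array it took 22 as higher and 3 as lower, with the profile subtracted 38 and 14, and with the Cy3 arrays turned 1 and 5.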

How the data were processed

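The deposited values are linear ratios of the sample to the pooled control for each spot; the authors scanned the slides, quantified the spots in ImaGene and scaled each channel to its mean. The direction (sample over pool) is taken from the order of the channels in the labels and is likely but not stated, so every sign rests on it, and values with the Cy3 arrays turned are given. Within a slide the Cy3 and Cy5 arrays of D0 correlated at -0.68 and -0.73 over clones and those of D4+LIF at -0.59 and -0.03, and arrays of 1 dye were at 0.09 to 0.76. The median ratio was 0.943 and 1.75 on the D4+LIF arrays (Cy3, then Cy5) and 0.655 and 1.19 on the D0 arrays, so the centring of the deposited ratios differs. Channel intensities were not used here, and the blank-spot filter of the study was not repeated.

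Ratios were taken to log2, duplicate spots (160 apart) were averaged, and the median of an array on each slide was set to 0; 3840 edge spots were left out. Clones were averaged by gene symbol, from the platform annotation with symbols set against RefSeq. Limma (3.58.1, R 4.3.3) was fitted to all 18 arrays with a mean for each condition and a dye term, so the 9 conditions share 1 estimate of spread, with Benjamini-Hochberg adjustment over all genes or clones tested. With 2 arrays a group, precision is limited. The limma step was tried on simulated arrays with independent noise and known changes. These held none of the differences in spread and slope between the real arrays, so they cannot speak for those. The dye profile was subtracted by lowess (span 0.3) within slide, a step added after the data were seen.

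The members, the 33 gene lists and the tests were chosen with earlier results of these data known. Genes named are the 12 of largest rise and fall past the threshold with 1 sign in both pairs, filled up by smallest p, up to 4 genes of each list past the threshold or else the 2 of smallest p, the genes the study names, and the 5 of smallest p each way against D4-LIF; further members of the lists, and genes that stand apart on all arrays, were named after their values were seen. Alternatives were array-wide or no centring, equal MAD, quantile normalization, no dye term, the 4 arrays only, clones complete on 18 arrays, duplicate spots within 1 on the log2 scale or kept apart, array weights, each slide alone, each array left out and a further 2-fold limit. Lists were counted, not tested.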

Additional observations from a re-analysis of the deposited data

How the results depend on the processing

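The count of genes past the adjusted test moved from 0 to 6 with array-wide centring (0 higher, 6 lower), 11 for clones with a value on all 18 arrays, 537 on slide 2 alone and 12 at an adjusted p under 0.1. Leaving out 1 array gave 0 to 2679 genes (2679 without D0 in Cy5 and 1206 without D4+LIF in Cy3). The count of clones moved from 0 to 131 with array-wide centring, 1 with quantile normalization, 536 for clones with a value on all 18 arrays, 1312 on slide 2 alone, 3613 with duplicate spots kept apart, 1 with the profile subtracted and 176 at an adjusted p under 0.1. Leaving out 1 array gave 0 to 5594 clones (5594 without D0 in Cy5 and 2871 without D4+LIF in Cy3). It stayed at 0 for genes and clones without centring, at equal MAD, without the dye term, which is the replicate block here (223 genes at an unadjusted p under 0.05 against 2079), with the 4 arrays alone, with duplicate spots within 1, with array weights, on slide 1 alone and with the Cy3 arrays turned. Subtracting the profile and an adjusted p under 0.1 were chosen after seeing the data. Against D4-LIF leaving out 1 array gave 0 to 609 genes and against D3+LIF 0 to 433, in both the highest without D4+LIF in Cy3. The clones at least 2-fold in every repeat moved from 644 to 25 at equal MAD, 6 with the Cy3 arrays turned and 52 with the profile subtracted. The cause of these changes was not tested. The median of all genes was -0.13, 0.33 with array-wide centring, 0.84 without centring, 0.00 at equal MAD and -0.02 with quantile normalization. The replicate number is only the dye, and which array came from which biological set is not given, so whether it pairs the samples is unknown.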

Other observations

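Some genes had both arrays of a group beyond the arrays of all other groups, whichever dye the sample carried. The rule was set after the values were seen, and nothing was tested on it. For D0 there were 17 genes above and 29 below all others (46 of 7142, 0.644%), and for D4+LIF 15 above and 9 below (24, 0.336%). Over the other groups the counts ran from 2 above and 2 below in D1+LIF to 75 above and 24 below in D3+LIF. D0 thus had the most genes below all others, while its count above and both counts of D4+LIF lay within the range of the other groups. Below all others in D0, beside Dnmt1 and Trim71, were Mrps9, with -1.12 and -1.34 against -0.43 to 0.62 on the other arrays, and Ankrd50, an endosomal sorting protein, with -0.83 and -1.31 against -0.35 to 0.54. The clones of Dnmt1, Mrps9 and Ankrd50 are on slide 1, where the D0 array in Cy3 had its wide spread. Once the profile was subtracted, that array was at 0.22 for Mrps9 and no longer low. Igfbp5, which binds IGFs, lay at -0.24 and -0.15 in D0 against -0.04 to 0.64 elsewhere, and Igf2 was among the genes above all others in D0, with 0.67 and 0.08 against -0.80 to 0.05.

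Above all others in D4+LIF, beside Rab3d and Chst10, were Ip6k1 (0.56 and 0.68 against -0.25 to 0.19), Tubgcp5 (0.81 and 0.50 against -0.22 to 0.19) and Usp2, a deubiquitinase (0.77 and 0.50 against -0.20 to 0.31). All of these single genes but Igf2 rest on 1 clone.

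Beside Trim71, the genes whose EB arrays with LIF all lay above those without LIF were Timm44, Dhps, Gpld1 and Sycp1. Timm44, of the mitochondrial import motor, lay at -0.09 to 0.46 on 8 arrays with LIF and at -0.71 to -0.11 on 7 without LIF.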
